A study of Mus musculus with 4 samples.

Results

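The small intestine of C57BL/6 mice, 9 to 10 weeks old, was read with 2 library protocols, and the comparison described here is that of these 2 libraries, out of 4 in the series. The pair was chosen by its tissue and protocol labels alone. One library, called cDNA fragmented, was made from polyadenylated RNA by SMART cDNA synthesis, in which an oligo-dT primer and a template switch give full-length cDNA that is amplified and then broken into fragments for a SOLiD V2 fragment library. Fragments from the ends of the cDNA, which carry the primers, were then removed from this library. The study gives this as the probable reason for low coverage at both ends of shorter transcripts. The other, called RNA fragmented, carries the label ribosomal RNA depleted and was made with the SOLiD V2 Whole Transcriptome Analysis Kit, in which the RNA itself is broken before adaptors are ligated and which keeps the strand. The methods of the study differ from this label, since they describe a selection of polyadenylated RNA ahead of this kit. They also give longer reads and more of them for the RNA fragmented protocol than the deposited files hold, so they may describe another library. Which RNA fraction entered the RNA fragmented library is therefore not settled, which bears on each value of an RNA without a poly(A) tail given below. Both samples are labelled as total small intestine, and the methods of the study give the jejunum as the source. The same pair of protocols in colon was used only to set values side by side. Each side of the comparison is 1 library, so there was no replicate and no test, and every interval below covers counting error only. Reads were amplified and carried no molecular identifiers, while the intervals take each read as independent, so they can be too narrow even for that. The labels do not say which mouse gave which library, and the methods name a different RNA extraction kit for each protocol. Protocol, extraction and animal therefore cannot be told apart from 2 libraries alone.

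An oligo-dT primer anneals to the poly(A) tail that most messenger RNAs carry, so RNAs without a tail are poor templates, and the reverse transcriptase that starts at the tail has to travel the whole transcript to reach its 5′ end. Ligation of adaptors to RNA fragments needs no tail and samples each part of a transcript in its own right. RNAs known to lack a tail include the small nucleolar RNAs (snoRNAs), which guide chemical modification of ribosomal RNA, the RNA parts of enzymes such as RNase MRP, and the messenger RNAs of the replication-dependent histones, which end in a short stem-loop instead.

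The cDNA fragmented library held 77504263 reads in total, of which 29% were placed at 1 position, and 22299173 fell on exon blocks of a gene. The RNA fragmented library held 36419942 reads, 5.59% placed at 1 position, and 2020045 on genes, so its low values were the less certain. Reads were summed over 20742 genes and are given as reads per 1000 exonic bases per 1000000 reads on genes (RPKM). The log2 difference is that of RPKM + 1, RNA fragmented over cDNA fragmented, so positive values are higher in the RNA fragmented library. A gene was called higher in a library when its RPKM was at least 3 times that of the other library plus 1, among genes with a mean RPKM of at least 1.

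Sex-linked and pancreatic genes differed between the 2 samples. Xist, the noncoding RNA that silences one X chromosome in female cells, had 1752 reads in the cDNA fragmented and 9 in the RNA fragmented library. Of the Y-linked genes, Uty had 0 reads in the cDNA fragmented and 128 in the RNA fragmented library, Kdm5d 0 and 107, Eif2s3y 0 and 40, and Ddx3y 19 and 85. In colon both libraries read Xist at a low level (31 and 5 reads) and Uty at a clear one (451 and 341 reads). The small intestine libraries thus carried reads of opposite sex-linked genes, and no value below separates the protocol from the mouse. Some markers of absorptive enterocytes had high values in both libraries. Fabp2, an intestinal fatty acid binding protein, had 38167 RPKM in the cDNA fragmented and 3268 in the RNA fragmented library. The brush border enzyme Anpep had 2534 RPKM in the cDNA fragmented and 1469.6 in the RNA fragmented library. The alkaline phosphatase Akp3, on the same list, was not alike in the 2 libraries, with a log2 difference of 8.04.

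Over 11716 genes tested, 1862 (15.9%) were at least 3-fold higher in the RNA fragmented and 1268 (10.8%) at least 3-fold higher in the cDNA fragmented library. The median log2 difference of all genes tested was 0.32, and each list below is to be read against it and against these shares of calls. The rank correlation (Spearman's rho) of the 2 libraries was 0.607 over these genes and 0.791 over 16520 genes with a read in either, across genes that are not independent replicates. Of the genes tested, 419 had a ratio just inside the 3-fold limit, from 3 to 3.3, and 523 just outside it, from 2.7 to 3. The split between the directions depended on the scaling: 59.5% of calls were higher in the RNA fragmented library as scaled here, 33.4% with median-of-ratios scaling, which put the median of all genes at -0.22, and 68.6% when the single gene Lars2 was left out of the totals, which put it at 0.52. In colon, 16.3% of 12375 genes were higher in the RNA fragmented and 10.1% in the cDNA fragmented library, with a median of 0.43.

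The genes that stood farthest apart in favour of RNA fragmentation were small RNA genes. The 10 leading genes were 9 snoRNA genes and the RNA of RNase MRP, an enzyme that trims ribosomal RNA precursors. The ends of 4 of them are shown because they carry the boxes of their class. In a C/D box snoRNA, box C (searched as TGATGA in the first 25 bases of the gene) and box D (CTGA in the last 25 bases) fold together to hold the guide between them. The letters below were read from the mm9 genome along the strand of each gene, with the boxes in capitals. Of 104 snoRNA genes, 28 (26.9%) held both boxes by this search, 26 others held ACA within the last 10 bases, as H/ACA snoRNAs do, and 49 held neither, while 1 gene annotated in several blocks was not searched. A match is a description of the letters and not evidence of function.
Snord104, 5′ end, chr11:106362305-106362328, + strand: cggcgaTGATGAcactccatacat
Snord104, 3′ end, chr11:106362354-106362377, + strand: gtgatgcgaatcgtaatCTGAgcc
AC102570.1, 5′ end, chr1:9932601-9932624, - strand: acaaTGATGActtaagtttttgcc
AC102570.1, 3′ end, chr1:9932551-9932574, - strand: agagagaatcttaaaagaCTGAga
AL671866.1, 5′ end, chr4:116828430-116828453, - strand: cgcggaTGATGAcacctgggtatg
AL671866.1, 3′ end, chr4:116828376-116828399, - strand: ccaaccttggagagCTGAgcgtgc
Snord82, 5′ end, chr1:88252879-88252902, - strand: acaagTGATGAgtgacaaagggac
Snord82, 3′ end, chr1:88252835-88252858, - strand: tgaaatgaaatatgCTGAtgtgct

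Snord104, of 73 exonic bases, had 22 reads in the cDNA fragmented and 5581 in the RNA fragmented library, or 13.5 RPKM in the cDNA fragmented and 37847 in the RNA fragmented library, a ratio of 2800.4-fold (95% counting interval 1848 to 4472). AC102570.1 had 4 reads in the cDNA fragmented and 3530 in the RNA fragmented library, a ratio of 9742-fold (3802 to 35774). AL671866.1 had 1 read in the cDNA fragmented and 3305 in the RNA fragmented library, a ratio of 36484 whose counting interval began at 6544. Each of these 3 genes thus had at most 22 cDNA fragmented reads. Snord82 had 0 reads in the cDNA fragmented and 960 in the RNA fragmented library. Against a floor of 3 reads in the library at 0 its ratio was 3532-fold, and its counting interval began at 2867. Against the same floor the ratio was 15407-fold for Snord34 (0 and 4187 reads, counting interval from 12524). For RNase_MRP (0 and 1533 reads) it was 5641-fold, with a counting interval from 4582. Snord34 and RNase_MRP were the other genes with over 1000 reads among the leading 10, and both share bases with another annotated gene. The reads of these short genes piled on few positions: the 5581 reads of Snord104 began at 22 start points, 3243 of them at a single one.

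Summed over all 104 snoRNA genes, the cDNA fragmented library held 481 reads and the RNA fragmented library 26884, which is 21.6 against 13309 RPM (reads per 1000000 reads on genes) and a ratio of 617-fold (564 to 677). Of the 104 genes, 23 had no read in either library and 46 were read only in the RNA fragmented one. The filter on mean RPKM left 81, of which 76 were higher in the RNA fragmented and 0 in the cDNA fragmented library, with a median log2 difference of 7.28, but 60 of these passed it through the RNA fragmented library, having under 1 RPKM in the other. In colon 78 of 84 were higher in the RNA fragmented library and 1 in the cDNA fragmented one (median 7.08). By box class the summed reads were 36 and 17216 for the 28 genes with boxes C and D, 54 and 1945 for the 26 with ACA near the end, and 391 and 7694 for the 49 with neither. The summed ratio was 5279-fold (3812 to 7539.9) in the first class, 398-fold (303 to 531) in the second and 217-fold (196 to 241) in the last. Single genes weighed on these sums: Snord104 held 22 of the 36 cDNA fragmented reads of the first class. Snord34 held 4187 of the 7694 RNA fragmented reads of the last. The search took exact letters only, so its classes are not families of snoRNAs, and the order of the ratios was not tested.

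The other small RNA classes held fewer reads. The 7 genes annotated as miscellaneous RNA held 16 reads in the cDNA fragmented and 2118 in the RNA fragmented library, and the 4 small nuclear RNA genes, whose products splice messenger RNA precursors, held 3 and 552. The 4 tested genes of each class were called higher in the RNA fragmented library, but 3 of the first class and 4 of the second had under 1 RPKM in the cDNA fragmented library and passed the filter through the other. Summed over 347 microRNA genes the libraries held 1091 and 99 reads, or 48.9 and 49.01 RPM, a ratio of 1.002 (0.807 to 1.23). A single gene, Mir682, had 1012 of these reads in the cDNA fragmented and 5 in the RNA fragmented library. Without it the sums were 79 and 94 reads, 13.1-fold (9.63 to 17.9) higher in the RNA fragmented library, so the equal sum rested on Mir682. Among 31 tested, 27 were called higher in the RNA fragmented and 3 in the cDNA fragmented library, yet 25 passed the filter only through the RNA fragmented library, where a single read on a gene this short is worth several RPKM.

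snoRNAs are mostly cut from the introns of host genes, and where the annotation places them in exons the host gene can inherit their reads. Gas5, a noncoding host whose spliced transcript does carry a tail, had 1907 reads in the cDNA fragmented and 9789 in the RNA fragmented library, a log2 difference of 5.78. Within the 435 bases of its 6 annotated snoRNAs lay 90 of the cDNA fragmented and 9765 (99.8%) of the RNA fragmented reads. The rest of the gene had 1817 and 24 reads, a log2 difference of -2.58, so the host outside its snoRNAs lay on the other side of 0 from the gene as a whole. In 2700023E23Rik, 405 of the RNA fragmented reads fell in 1 small RNA, and the log2 difference went from 5.19 with it to 1.62 without it. Snhg3, another noncoding host, had 308 reads in the cDNA fragmented and 1 in the RNA fragmented library and a log2 difference of -3.93, and Snhg1 had 98 and 5 reads and -0.72. Of 29 coding hosts, such as the ribosomal protein gene Rpl4, 0 were higher in the RNA fragmented and 10 in the cDNA fragmented library (median -1.14). Relative to all genes their median was -1.47 for reads, -0.055 for start points and -1.96 for start points after the cDNA fragmented library had been thinned to the depth of the other, and after taking off the median of coding genes of the same length it was -0.51. The 414 tested genes with a small RNA annotated in an intron had 72 and 31 calls and a median of 0.43, near that of all genes. The 32 tested coding genes with one annotated in an exon had 5 and 4 calls and a median of 0.52, so Gas5 and 2700023E23Rik do not stand for that class.

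The replication-dependent histone genes differed with the letters at their 3′ ends. Windows of 60 bases on each side of the annotated 3′ end were searched on the gene strand for the histone stem-loop, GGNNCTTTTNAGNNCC, where N is any base, and the 60 bases before the end for the poly(A) signal AATAAA. The stem-loop was found at 42 of 68 histone genes and at 2 of 20674 other genes (0.0097%), which is 0.212% of all windows, histone genes included. AATAAA was found at 7 of the 68 and in 53.3% of all windows. No histone gene held both within these windows, and 19 held neither. A stem-loop more than 60 bases before the annotated end was not searched for. Genes with AATAAA such as Hist1h1c and Hist2h2be, of 1560 and 2618 exonic bases, may therefore hold one farther upstream. Below are 3 genes with a stem-loop and 3 with AATAAA in the mm9 genome, with the motif in capitals. The coordinates given for Hist1h1b, on the - strand, run a single base too high.
Hist2h2bb, chr3:96074087-96074116, + strand: cccaaaaGGCTCTTTTCAGAGCCactttag
Hist1h3h, chr13:21809957-21809986, + strand: tttcaaaGGCTCTTTTCAGAGCCacccaaa
Hist1h1b, chr13:21871700-21871729, - strand: ccccaaaGGCTCTTTTCAGAGCCacctaga
Hist1h2bc, chr13:23784325-23784352, + strand: atatatAATAAAtgtcatgtaaagcaaa
Hist1h1c, chr13:23832205-23832232, + strand: gcttctAATAAAaagcgtttagttttca
Hist2h2be, chr3:96027634-96027661, + strand: attattAATAAAgttaccgattagtttc

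Over the 42 genes with a stem-loop the cDNA fragmented library held 30 reads and the RNA fragmented library 426, a ratio of 157-fold (108 to 235), and 30 of the 42 had no cDNA fragmented read. Over the 7 with AATAAA the sums were 3757 and 143, 2.38-fold (2.01 to 2.83) higher in the cDNA fragmented library. Over the 19 with neither they were 493 and 501, 11.2-fold (9.89 to 12.7) higher in the RNA fragmented library. These 19 were unlike: 7 held the variant signal ATTAAA in the 60 bases before the end (15.6% of all windows do), with 446 and 104 reads and a ratio of 2.57-fold (2.06 to 3.19), and the other 12 had 47 and 397 reads and a ratio of 93.2-fold (68.8 to 129). The AATAAA sum rested on Hist1h2bc, without which the other 6 genes held 798 and 74 reads, a ratio of 1.02 (0.796 to 1.3). Of the 4 tested genes with AATAAA, 0 were higher in the RNA fragmented and 1 in the cDNA fragmented library (median log2 difference -0.026). The 21 tested with a stem-loop each had under 1 RPKM in the cDNA fragmented library and passed the filter through the other. None of these could therefore be called higher in the cDNA fragmented library. Hist2h2bb, a core histone H2B gene with a stem-loop, had 2 reads in the cDNA fragmented and 101 in the RNA fragmented library, or 0.182 RPKM in the cDNA fragmented and 101 in the RNA fragmented library, a ratio of 557-fold (150.4 to 4666). Hist1h3h, which encodes histone H3, had 0 and 44 reads. Against the floor of 3 reads, which is not a lower limit, it was 162-fold higher in the RNA fragmented library. The linker histone gene Hist1h1b had 6 and 39 reads, a ratio of 71.8-fold (30.2 to 207). With AATAAA, Hist1h2bc, another H2B gene, had 2959 reads in the cDNA fragmented and 69 in the RNA fragmented library and was 3.88-fold (3.06 to 5.01) higher in the former. Hist1h1c, a linker histone gene, had 566 and 50 reads and Hist2h2be 213 and 19, with log2 differences of -0.03 and -0.02. The remaining named member, Hist1h1e, a linker histone gene with neither motif in its window, had 9 and 194 reads, a ratio of 238-fold (123 to 528), and it shares bases with another gene.

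Of the 68 histone genes, 22 had no read in either small intestine library, and 36 passed the filter, 30 of them with under 1 RPKM in the cDNA fragmented library. Among those that passed, 27 were higher in the RNA fragmented and 1, Hist1h2bc, in the cDNA fragmented library, with a median log2 difference of 3.95 (colon 3.25, 26 and 0 of 38). Of the 27, 19 were stem-loop genes that passed the filter through the RNA fragmented library alone. The count and the median are therefore no evidence of a direction. The replacement histones, which are made outside S phase from tailed messenger RNAs, had 1 and 2 calls among 9 genes and a median of -0.77. H2afz, the H2A.Z gene, had a log2 difference of -3.30 and H3f3b, an H3.3 gene, -1.07. Intronless coding genes outside the histones had 37 and 15 calls of 212 and a median of 0.54, with 38 of the 212 under 1 RPKM in the cDNA fragmented library.

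**Figure D1:**
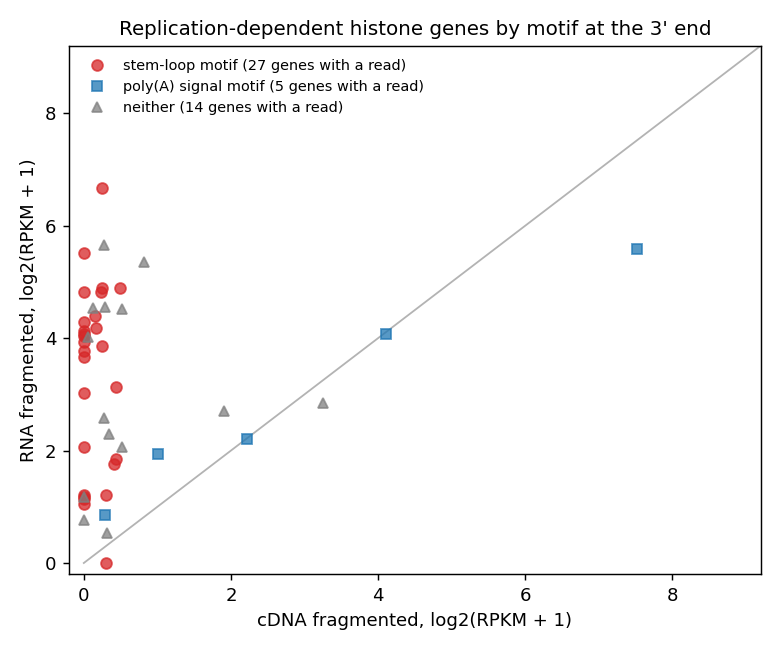
Each point is a replication-dependent histone gene with at least 1 read, placed by log2(RPKM + 1) in the cDNA fragmented library (x axis) and in the RNA fragmented library (y axis) of small intestine, with the symbol giving the motif found around its 3′ end and the grey line marking equal values. Genes with the stem-loop motif lie near 0 on the x axis and up to a log2 difference of 6.44, whereas those tested with the poly(A) signal motif lie near or below the line, at log2 differences from -1.94 to 0.92.

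A single stretch of a gene held a large part of the reads placed in the RNA fragmented library. Lars2, which encodes the mitochondrial leucyl-tRNA synthetase, had 4822 reads placed on it in the cDNA fragmented and 277915 in the RNA fragmented library, and the latter were 13.8% of all reads placed on genes in that library (5.40% in colon, 186260 reads). Of them, 277830 fell in a window of 394 bases in its last exon, chr9:123370911-123371304, and 57788 began at a single position, while 85 fell elsewhere in the gene. The cDNA fragmented library had 3843 reads in the window and 979 outside it. Whether these reads came from Lars2 messenger RNA was not tested, so the share is one of placed reads and not a level of that messenger RNA, and the same reads are part of the total behind each RPKM. Leaving Lars2 out of the totals raised the RNA fragmented RPKM of each other gene by 0.213 on the log2 scale.

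Among long nuclear noncoding RNAs, Malat1 had 6818 reads in the cDNA fragmented and 12681 in the RNA fragmented library and a log2 difference of 4.33 (colon 2.91), and it shares bases with another annotated gene. Neat1, which builds the paraspeckle, had 2147 and 884 reads and was higher in the RNA fragmented library by 2.15 in small intestine, against -1.47 in colon. Tug1 had 11011 and 363 reads and -1.43, a difference that the call rule did not pass. As a class the 68 tested long intergenic noncoding RNA genes stood near all genes, with 8 and 3 calls and a median of 0.45.

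Among protein coding genes, longer genes had the larger log2 differences. The median was -2.48 for the 123 tested coding genes of up to 500 bases, -1.55 for 815 genes of 500 to 1000 bases, -0.51 for 2662 of 1000 to 2000 bases, 0.47 for 5879 of 2000 to 5000 bases and 1.17 for 1911 above 5000 bases. The calls followed the medians except at the short end. In the shortest class 20 genes were higher in the RNA fragmented and 75 in the cDNA fragmented library, in the second 38 and 381, in the longest 530 and 5. Most of the 20 were replication-dependent histone genes, among them Hist2h2bb with the highest log2 difference of the class, 6.44. In that class 21 of the 123 tested genes had under 1 RPKM in the cDNA fragmented library. Of the 1911 tested genes in the longest class, 372 had under 1 RPKM in the cDNA fragmented and 13 in the RNA fragmented library, so part of its calls are of genes that passed the filter through the library in which they are high. The colon medians ran from -2.21 through -1.54, -0.34 and 0.62 to 1.19. Across 11390 coding genes, which are not independent replicates, rho between the difference and the length was 0.471. Over all genes the class of up to 500 bases had a median of 2.02, a class that also holds the snoRNA genes.

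Among the coding genes that passed the filter, those rich in G and C had the larger log2 differences. The median log2 difference was 0.02 below 40% GC, 0.003, 0.05 and 0.23 in the next 3 classes up to 55%, 0.98 from 55 to 60% and 1.86 at 60% and above. In the last class 257 of 487 genes were higher in the RNA fragmented and 15 in the cDNA fragmented library, but 226 of the 487 had under 1 RPKM in the cDNA fragmented library (9 in the other) and passed the filter through the RNA fragmented one. Within the 2000 to 5000 base class the same medians ran from -0.09 to 2.27, and above 5000 bases from 0.71 to 2.25, where 118 of 209 and 24 of 34 genes in the respective highest GC class had under 1 RPKM in the cDNA fragmented library. Colon differed at the low end, where the class below 40% GC had a median of 0.69, and had 1.58 at the high end.

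**Figure D2:**
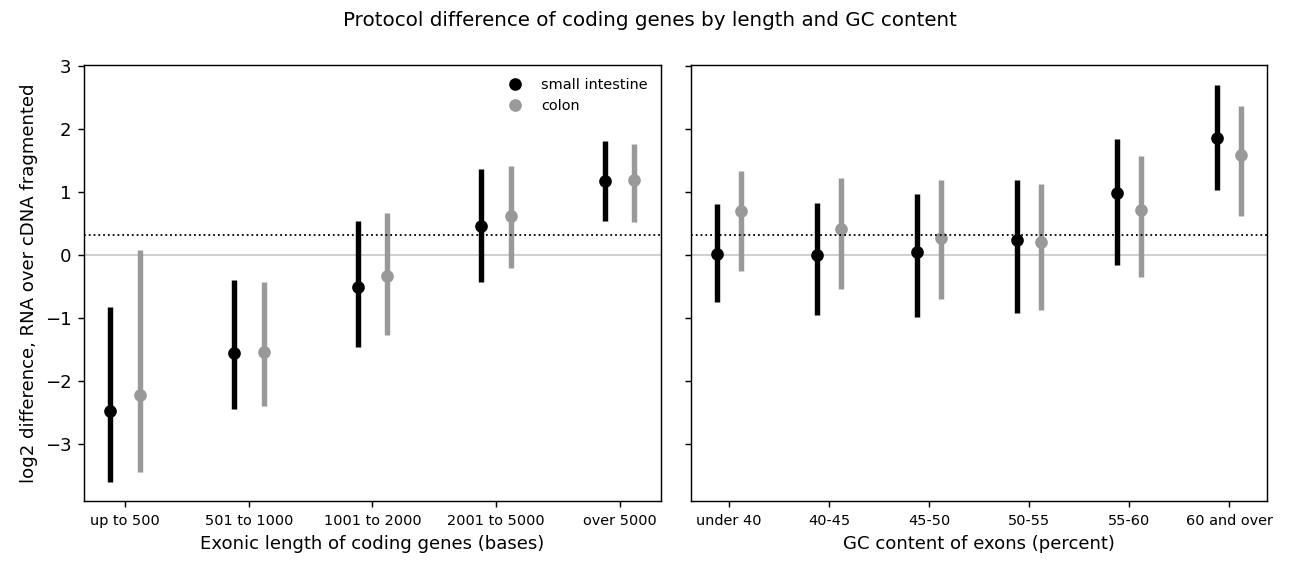
Median log2 difference (points) with the 25th to 75th percentiles of genes (bars), RNA fragmented over cDNA fragmented, of tested protein coding genes by exonic length (left, in bases) and by GC content (right, in percent), for small intestine and colon. The small intestine medians climb from -2.48 to 1.17 with length, and from 0.003 to 1.86 between the 40 to 45% and the highest GC class.

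Genes of the mitochondrial respiratory chain and of the cytosolic ribosome, many of them short, were called in the direction of the cDNA fragmented library. Of 73 tested nuclear genes of oxidative phosphorylation, the respiratory chain and ATP synthase of mitochondria, 0 were higher in the RNA fragmented and 49 in the cDNA fragmented library, with a median log2 difference of -2.21 (colon -2.38). Cox6b1, a cytochrome oxidase subunit, had 21700 reads in the cDNA fragmented and 83 in the RNA fragmented library and -4.55, and Atp5o, an ATP synthase subunit, 28682 and 194 reads and -3.73. Ndufa2, a subunit of complex I of 236 exonic bases, led all genes in this direction with 2114 reads in the cDNA fragmented and 1 in the RNA fragmented library (log2 difference -7.02, ratio 192-fold (34.3 to 7568)). Of 78 tested cytosolic ribosomal protein genes, 0 and 43 were called in the respective directions, with a median of -1.75 (colon -1.74), Rps27 at -3.94 and Rplp0 at -3.02. The shortest of 20 exonic length bins held every gene up to its upper edge, Ndufa2 as well as Gm1821 of 703 bases. With the median of coding genes of the same bin taken off, the medians were -0.71 and -0.45. Counted by start points in place of reads, they were -0.69 and -0.31 relative to all genes, against -2.53 and -2.08 for reads, but start points after the cDNA fragmented library had been thinned to the depth of the other gave -2.61 and -2.30.

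The other leading genes of the cDNA fragmented side were Gm1821, Ubb, 1810027O10Rik, 2010001M09Rik, Ubd, Lsm7, Defa24, Gm11968 and Psma7. Ubb, a polyubiquitin gene, had 11095 reads in the cDNA fragmented and 8 in the RNA fragmented library (log2 difference -6.60, colon -7.13). Gm1821 and Gm11968, annotated as pseudogenes, had 4637 and 2 and 2333 and 5 reads. Placement of single reads on near copies such as these, and on Ubb with its repeated units, is uncertain, because reads that matched more than 1 place were left out. Psma7, a proteasome subunit, had 10191 and 28 reads (-4.96, colon -5.28), and Lsm7, which belongs to a ring of proteins on small nuclear RNA, 1614 and 3 (-5.22, colon -5.26). Ubd, a ubiquitin-like protein of immune responses, had 5348 and 11 reads and differed less in colon (-5.22 against -2.62).

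At the other end, 27 of 33 tested genes from a list of very long transcripts were higher in the RNA fragmented library and 0 in the cDNA fragmented one, with a median of 2.57 (colon 1.61, 15 of 33) and 1.22 after the same length correction. Of the 33, 7 had under 1 RPKM in the cDNA fragmented library and passed the filter through the other. Apob, the core protein of chylomicrons, had 77.4 RPKM in the cDNA fragmented and 989 in the RNA fragmented library, a log2 difference of 3.66. Fcgbp, a mucus protein of goblet cells, had 3.57, Cubn, the receptor for intrinsic factor and vitamin B12, 3.04, and Lrp1, a large endocytic receptor, 3.997. Fcgbp and Cubn share bases with another annotated gene.

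Where along a gene the reads fell differed with the protocol in the long classes. For the 1861 coding genes above 5000 bases with at least 20 reads in both libraries, the 33 bins at the 5′ end, out of 100 along the exons, held 15.8% of cDNA fragmented and 31.5% of RNA fragmented reads on average, and the 33 at the 3′ end 57.7% of cDNA fragmented and 33.1% of RNA fragmented reads. The last 10 bins alone held 24.6% and 9.35%, and the first 10 bins 3.51% and 7.12%. The cDNA fragmented library thus leaned to the 3′ end, while both ends were near equal in the RNA fragmented one. In 4566 genes of 2000 to 5000 bases the 33 bins at the 3′ end held 48.8% and 34.3%, in 1523 of 1000 to 2000 bases 42.8% and 36.8%, and in 392 of 500 to 1000 bases 38.9% and 39.5%, so the gap closed as genes became shorter.

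**Figure D3:**
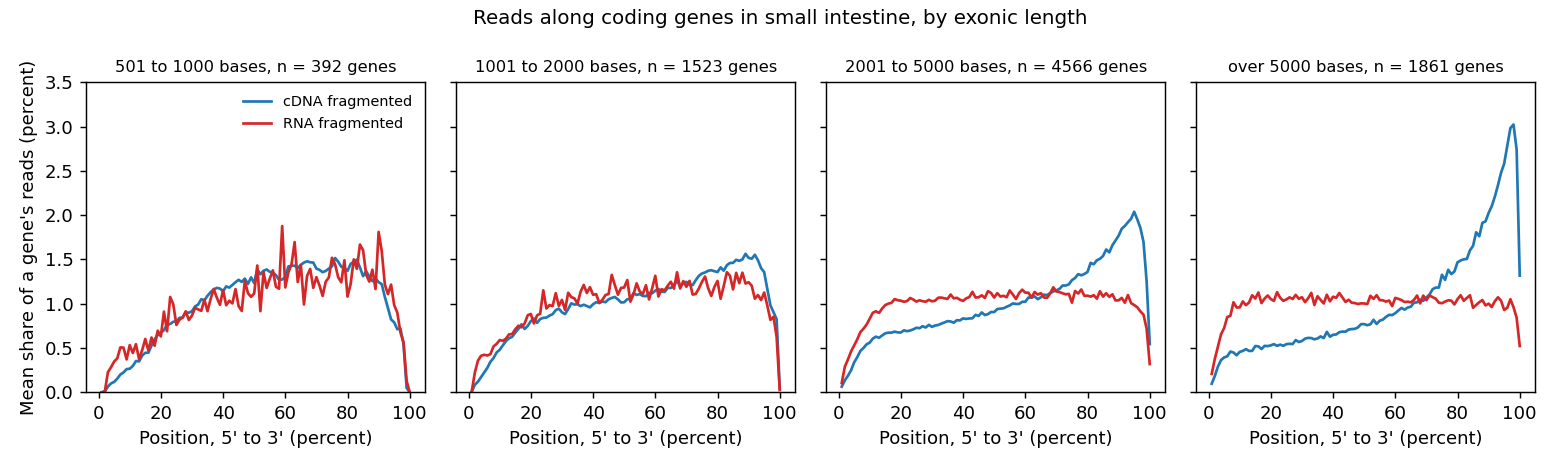
Mean share of a gene's reads (percent, y axis) in each of 100 bins from the 5′ to the 3′ end (x axis), over coding genes of each exonic length class with at least 20 reads in both small intestine libraries. Above 5000 bases the cDNA fragmented line climbs toward the 3′ end, with 24.6% of reads in the last 10 bins, while the RNA fragmented line stays flatter, with 9.35%.

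The long genes with most RNA fragmented reads showed this gene by gene, apart from Malat1. Apob, of 13909 exonic bases, had 4.82% of its cDNA fragmented and 22.5% of its RNA fragmented reads in the 33 bins at the 5′ end, and 36.7% and 12.96% in the last 10 bins. Fcgbp had 12.03% and 50.3% in the 33 bins at the 5′ end, and lactase (Lct), the brush border enzyme that splits milk sugar, 12.1% and 39.4%. Sucrase-isomaltase (Sis), the brush border enzyme for starch and sucrose, differed less, with 24.4% and 30.3%. Malat1 ran the other way: its 33 bins at the 5′ end held 94.9% of cDNA fragmented but 21.5% of RNA fragmented reads. Its 33 bins at the 3′ end held 1.29% and 47.6%, and its first 10 bins 77.2% and 1.75%.

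Strand was kept in the RNA fragmented library only. Of its reads on genes, 98.1% lay on the annotated strand, against 48.4% in the cDNA fragmented library. Of 5824 genes with at least 50 RNA fragmented reads, 5383 had at least 95% on their own strand and 120 less than 50%, of which 100 share bases with another annotated gene. The 171 genes without a GENCODE name have no annotated strand and were counted as + strand genes. Some of the 120 are such genes, for which the share has no meaning. Usp37, a ubiquitin protease, had 4.66% of its 1396 RNA fragmented reads on its own strand, Wdr77 4.97% of 1047, and Dkc1, the pseudouridine synthase of H/ACA snoRNPs, 3.97% of 906. In the cDNA fragmented library the same genes had 51.0%, 56.0% and 50.02% on the gene strand, so there the gene and its antisense partner cannot be told apart.

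Paneth cell genes were higher in the cDNA fragmented library. Of 21 tested Paneth cell genes, the antimicrobial products of the crypt base, 20 were higher in the cDNA fragmented and 1, Dll4, a Notch ligand, in the RNA fragmented library, with a median log2 difference of -3.34 (-1.57 after the length correction). In colon, where Paneth cells are not found, 5 of 15 tested were higher in the cDNA fragmented and 0 in the RNA fragmented library (median -0.68). Defa24, a defensin, had 39115 RPKM in the cDNA fragmented and 1099 in the RNA fragmented library, and Defa20 18934 and 5062 RPKM. The defensin genes are near copies of each other, so their single values are uncertain. Reg3b, a lectin against bacteria, had a log2 difference of -4.77 and lysozyme (Lyz1) -1.82. The Paneth median depended on what was counted: with start points in place of reads it lay above that of all genes, by 0.56, and with start points after the cDNA fragmented library had been thinned to the depth of the other it was -2.46 relative to all genes, against -3.67 for reads. In bulk tissue fewer cells of a type and less RNA per cell cannot be told apart.

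Of 28 genes of the brush border and absorptive enterocytes, 8 were higher in the RNA fragmented library, led by Akp3 (8.04). The 2 higher in the cDNA fragmented library were Fabp2 (-3.55) and the keratin Krt20 (-3.52), and the list had a median of 0.81. Relative to all genes this median was 0.48 for reads but -0.82 for start points after the cDNA fragmented library had been thinned, so its direction depended on the counting. Goblet cell genes had 2 and 4 calls among 11 and a median of 0.15: Agr2, a chaperone of mucin folding, had 51908 reads in the cDNA fragmented and 161 in the RNA fragmented library (-4.86), Spink4 44304 and 186 (-4.43), and the long Fcgbp 3.57. Relative to all genes the goblet median was -0.18 for reads, 0.79 for start points and -1.28 for start points after thinning. Of 16 T and intraepithelial lymphocyte genes, 0 and 8 were called in the respective directions (median -1.57, or -1.05 after the length correction), with the chemokine Ccl5 at -3.42, the granzyme Gzma at -2.40 and Nkg7 at -4.60. Igj, the joining chain of secreted antibodies, had 157536 reads in the cDNA fragmented and 1484 in the RNA fragmented library, a log2 difference of -3.26, against 0.07 in colon, and the B and plasma cell list had 0 and 3 calls among 12 (median -0.71). Circadian clock genes had 3 and 0 calls among 16 and a median of 1.37, led by Per1 with 28 and 86 reads (2.99). Their share of calls, 18.75%, was near the 15.9% of all genes, and the median was 0.76 after the length correction. Immediate early genes had 3 and 0 among 16 (18.75%, median 0.92) and smooth muscle genes 3 and 0 among 19 (15.8%, 0.51), shares that also lay near that of all genes. The medians were -0.46 for cell cycle genes, with 0 and 2 calls among 22, and -0.77 for interferon-stimulated genes, with 1 and 2 among 22. In both lists the share higher in the cDNA fragmented library was 9.09%, near the 10.8% of all genes.

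**Figure D4:**
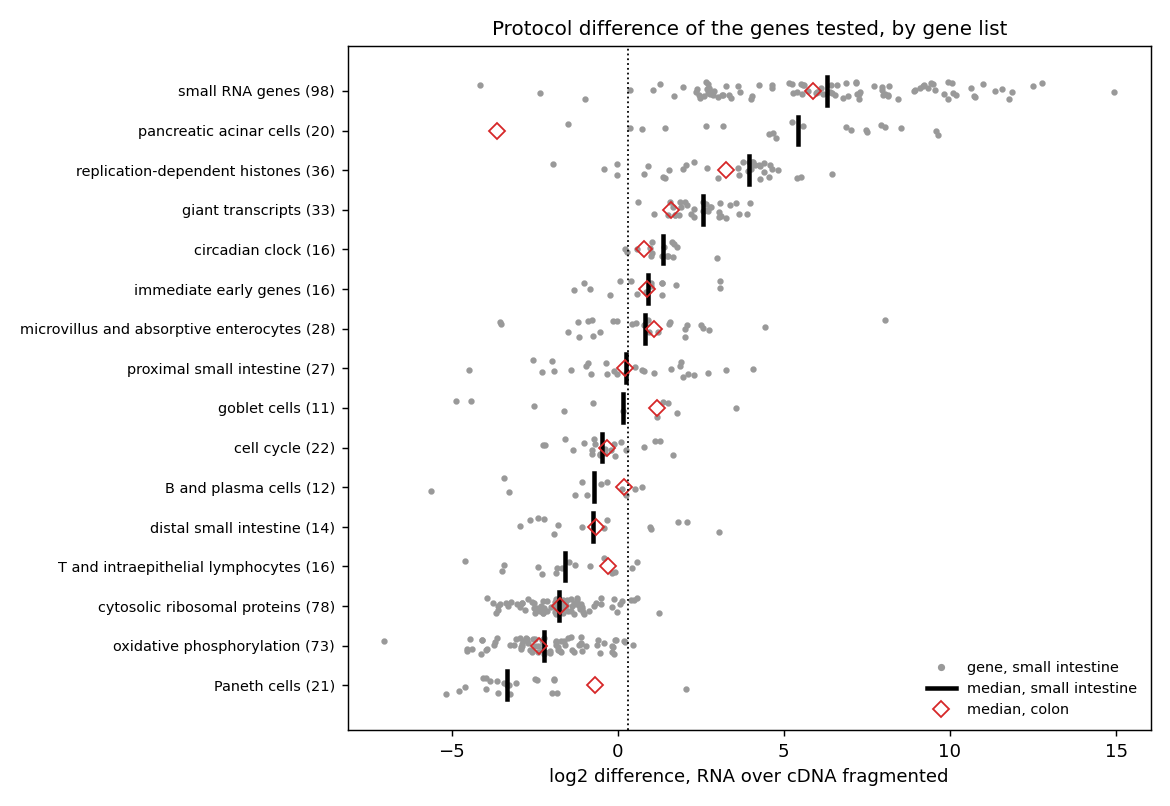
Log2 difference, RNA fragmented over cDNA fragmented, of each tested gene of small intestine (grey points) by gene list, with the small intestine median (black bar) and the colon median (open diamond); the number after each name is of genes tested and the vertical line marks the median of all genes, 0.32. The acinar list lies at 5.42 in small intestine and -3.64 in colon, while the ribosomal protein and oxidative phosphorylation lists lie left of the line in both.

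The digestive enzymes of pancreatic acinar cells, as a list, lay in opposite directions in the 2 tissues. Of 24 acinar genes found, 3 had no read in either small intestine library, and of 20 tested 16 were higher in the RNA fragmented and 0 in the cDNA fragmented library, with a median of 5.42, although 14 passed the filter with under 1 RPKM in the latter. In colon 0 and 16 of 18 were called in the respective directions, with a median of -3.64. Summed over the list, the small intestine libraries held 337 and 4853 RPM (ratio 14.4, 13.97 to 14.8), and the colon libraries 2035 and 470.4. The list was thus high in one library of each tissue, under opposite protocols. Cela2a, an elastase, had 0 reads in the cDNA fragmented and 1312 in the RNA fragmented library of small intestine, but 5503 and 8 in colon. Ctrb1, a chymotrypsinogen, had 3 and 1595 reads in small intestine and 1773 and 5 in colon, and the pancreatic lipase Pnlip 0 and 1110 against 2229 and 3. Cela1 was read in all 4 libraries, with 454, 1116, 14926 and 1119 reads in the same order. Clps, the cofactor of lipase, had 3613 and 115 reads in small intestine, a log2 difference of -1.50, so not every member followed. Whether pancreatic tissue or another source gave these reads was not tested.

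**Figure D5:**
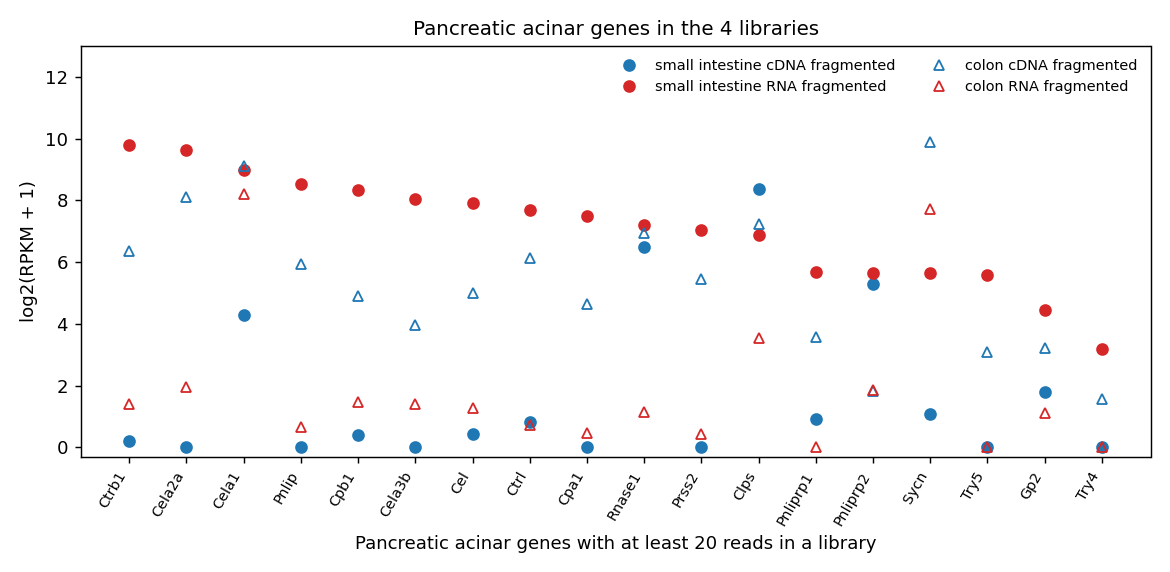
log2(RPKM + 1) of 18 pancreatic acinar genes with at least 20 reads in a library (x axis) in the 4 libraries, with filled circles for small intestine, open triangles for colon, blue for cDNA fragmented and red for RNA fragmented. For Cela2a, Ctrb1 and Pnlip the RNA fragmented library of small intestine and the cDNA fragmented library of colon are the high ones.

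Genes whose level changes along the gut lay in both directions. Akp3, the alkaline phosphatase of the duodenal brush border, had 12 reads in the cDNA fragmented and 1173 in the RNA fragmented library, or 0.320 RPKM in the cDNA fragmented and 346 in the RNA fragmented library, a ratio of 1079-fold (615 to 2094). Akp3 is a member of the enterocyte list above and not of the gut region lists. The transcription factor Pdx1 had 1 and 15 reads and the trefoil peptide Tff2 1 and 20, and both were called higher in the RNA fragmented library, as were Gata4 (1.91), Onecut2 (2.12) and the iron exporter Slc40a1 (3.26). These examples from the proximal list were picked after their values were seen. Fabp1, a fatty acid binding protein, lay in the opposite direction at -4.48. The list of proximal genes as a whole had 8 and 5 calls among 27 and a median of 0.26 (0.036 after the length correction), with 3 of the 27 under 1 RPKM in the cDNA fragmented library. Relative to all genes that median was -0.068 for reads, 0.97 for start points and -0.92 for start points after thinning, so the list had no fixed direction. Among distal genes, Fgf15, the ileal hormone that represses bile acid synthesis, had 351 reads in the cDNA fragmented and 1 in the RNA fragmented library (-2.93) and shares bases with another gene, the bile acid binding protein Fabp6 had -1.93 and the bile acid transporter Slc10a2 1.81. That list had 3 and 6 calls among 14 and a median of -0.75 (-0.28 after the length correction). Of colon genes, Car1, a carbonic anhydrase, had 0 reads in the cDNA fragmented and 68 in the RNA fragmented library of small intestine, against 1619874 and 25678 in colon, and the list had 4 and 4 calls among 12 (-0.72).

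Of the genes called in small intestine, most with a call in colon had it in the same direction. Of 1862 genes higher in the RNA fragmented library, 1198 were so in colon (64.3% of the small intestine and 59.3% of the colon calls) and 19 were higher in the cDNA fragmented library there. Of 1268 higher in the cDNA fragmented library, 818 were so in colon (64.5% and 65.3%) and 0 the opposite. Over 11206 genes tested in both tissues Pearson's r of the protocol differences was 0.839 and rho 0.827, a description across genes, whose length and base composition are the same in both. Of the 19 genes of opposite direction, 14 were on the acinar list and 5 were not, namely Car1, the calcium binding protein gene S100g, Slc37a2, the phospholipase gene Pla2g1b and 2210010C04Rik. Sycn, among the 14, is also on the colon list. Off the acinar list, 2210010C04Rik had 0 and 851 reads in small intestine and 913 and 8 in colon, and Pla2g1b 0 and 16 against 98 and 0. The 14 and 5 thus count list members and not genes of pancreatic and other origin.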

How the data were processed

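Per the labels and the study's methods, 4 libraries of mouse small intestine and colon were sequenced on SOLiD, 1 for each tissue and protocol. The deposited files give, for each read the authors placed at 1 position, its chromosome, signed position and number of color mismatches, with no normalization, a unit recorded here as other than counts. The authors matched 35 colors with Corona to an exon and junction reference built from RefSeq exons of mm9, allowing up to 3 mismatches, and dropped reads with several placements, which lowers near copies. Reads on exon blocks were summed over 20742 genes named from GENCODE mouse release M1 (assembly mm9), and junction reads, under 1% of each library, were left out of gene sums. Sequences were read from the mm9 genome. Calls at 3-fold with a penalty of 1 follow the rule the study used between its tissues, on FPKM. The RPKM and the filter at a mean RPKM of 1 are choices made here. Coverage used 100 bins of the exons of a gene.

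Genes were named from the 10 with the largest ratio in each direction (at least 20 reads in the higher library), the 3 most abundant members and the largest difference of each list, the 5 long genes with most RNA fragmented reads, and the genes the study names. Not every gene that this rule gave is named. Others were picked after their values were seen, namely Hist1h3h, Hist1h1b, Hist1h1c, Hist2h2be, Reg3b, Mir682, 2700023E23Rik and the further gut region, acinar, sex-linked and strand examples. All lists and members were chosen with earlier results of these data known. Intervals are exact conditional binomial intervals at 95%. No test was made. Some genes and sequences are not reported here, and counts and medians of lists still include such genes. The calculation of calls and profiles was also run on simulated libraries with known changes, whose outcome is not given here. Python 3.11.15, NumPy 2.4.6, pandas 2.3.3, SciPy 1.17.1 and matplotlib 3.10.9 were used. Alternatives changed scaling, penalty, filter, counting unit, mismatches, depth, strand, shared genes, totals and length.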

Additional observations from a re-analysis of the deposited data

Results flagged for a closer look

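Pancreatic acinar genes lay on opposite sides of 0 under the same protocol contrast in the 2 tissues, with a median log2 difference, RNA fragmented over cDNA fragmented, of 5.42 in small intestine and -3.64 in colon. With 1 library a side the difference was not tested. Single genes called higher in the RNA fragmented library of small intestine and in the cDNA fragmented library of colon were 19 in number. Among the acinar genes named here, the small intestine log2 difference was 9.63 for Cela2a, 9.60 for Ctrb1, 8.53 for Pnlip, 8.06 for Cela3b, 7.91 for Cpb1, 7.50 for Cpa1, 7.47 for Cel, 7.03 for Prss2, 6.87 for Ctrl, 5.58 for Try5, 4.78 for Pnliprp1, 4.55 for Sycn and 2.66 for Gp2. Outside that list it was 7.63 for 2210010C04Rik, 4.81 for Car1, 3.94 for Pla2g1b, 2.54 for Slc37a2 and 1.97 for S100g. No difference between the tissues was tested for any of these genes.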

How the results depend on the processing

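No paired analysis was possible because each group holds 1 library. List and class medians are given here relative to the median of all genes, since scaling shifts that median. With median-of-ratios scaling 1077 genes were higher in the RNA fragmented and 2150 in the cDNA fragmented library, against 1862 and 1268, and the class above 5000 bases had 0.89 against 0.84. With a penalty of 0.1 RPKM 3011 were higher in the RNA fragmented library, and the medians were -2.03, -0.95 and 1.08 for genes of 500 to 1000, 1000 to 2000 and above 5000 bases (against -1.86, -0.83 and 0.84), 5.78 for histones (against 3.62), 7.66 for small RNA genes (against 5.96) and 2.71 for very long transcripts (against 2.25). Without a filter on low values rho was 0.791 against 0.607, the class of up to 500 bases had 0.19 (against 1.70) and the 4 above it -1.06, -0.32, 0.084 and 0.66. At a mean RPKM of at least 5 rho was 0.397, the 3 classes above 1000 bases had -0.92, 0.28 and 1.19, histones 4.01, small RNA genes 7.15 and very long transcripts 2.54. With start points in place of reads rho was 0.685, the classes from 500 to 5000 bases had -1.22, -0.66 and 0.099, small RNA genes 5.001, ribosomal proteins -0.31 (against -2.08) and oxidative phosphorylation -0.69 (against -2.53). Start points reversed the Paneth list to 0.56 (against -3.67) and the genes that the study names to 0.20, whereas start points after thinning gave -2.46 for Paneth genes, -2.30 for ribosomal proteins, -2.61 for oxidative phosphorylation and rho 0.661, and turned the enterocyte list from 0.48 to -0.82. The cause was not tested. The rank correlation was 0.585 with gene-strand reads and 0.629 over genes sharing no base. The median of coding genes in the same length bin taken off left 5.56 for histones, 8.13 for small RNA genes, -0.45 for ribosomal proteins, -0.71 for oxidative phosphorylation, 1.22 for very long transcripts and -1.57 for Paneth genes. The shortest bin held every gene up to its upper edge, Snord34 of 66 exonic bases as well as Gm1821 of 703. Small RNA genes, with a median of 85 bases among those tested, were thus not set against coding genes of their own length. Short histone and defensin genes fell in the same bin. The share of reads on the gene strand was 48.3% and 99.2% (cDNA and RNA fragmented) over genes sharing no base and 49.2% and 97.3% for start points. Of 311 alternatives over 26 further lists, 296 stayed within the 95% interval of the list's median over its genes. Thinning, at most 1 mismatch and the totals without Lars2 left each count within 1.5 times, rho within 0.02 and each leading median within that interval. The length correction, the totals without Lars2 and thinned start points were chosen after seeing the data. The depth of the RNA fragmented library limits genes of few reads.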

Other observations

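Further gene lists, counted as genes higher in the RNA fragmented and in the cDNA fragmented library of small intestine among those tested, were as follows. Stem cell genes of the crypt had 4 and 1 of 13 (median 0.28), with the Wnt target Axin2 at 3.23 (95 and 153 reads) and the stem cell marker Olfm4 at -0.80. Enteroendocrine genes had 1 and 5 of 16 (median -0.77). The 1 was the granule protein gene Chga, the highest of the list at 2.87, while the lowest member lay at -2.69. Genes of enteric neurons and glia had 0 and 0 of 8 (median -0.48), fibroblast and collagen genes 1 and 3 of 13 (median 0.46), MHC class II genes 1 and 1 of 10 (median -0.81), adipocyte genes 0 and 1 of 9 (median -0.23) and red blood cell genes 0 and 2 of 3 (median -2.11). Over all genes tested the shares were 15.9% and 10.8%, against 30.8% and 7.69% of stem cell and 6.25% and 31.25% of enteroendocrine genes. These lists hold few genes, and their counts and medians are descriptions of 2 libraries.

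The list of small RNA genes chosen by symbol was drawn up for small nucleolar, small Cajal body, micro, spliceosomal and polymerase III RNAs. It had 91 and 2 of 98 (median 6.29) out of 409 genes, of which 305 had no read. Of the 98, 75 had under 1 RPKM in the cDNA fragmented library and passed the filter through the other. The noncoding snoRNA hosts had 1 and 1 of 5 (median -0.57), the microRNA hosts 0 and 0 of 2 (median 0.26), the long nuclear noncoding RNAs 2 and 1 of 6 (median 0.89), and the list of 4 tested Y-linked genes with Xist 4 and 1 of 5 (median 3.42), of which the 4 passed the filter through the RNA fragmented library alone. The genes that the study names had 1 and 5 of 9 (median -1.82). That list was chosen on these samples and is no independent evidence of a direction.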
